A study of Mus musculus with 16 samples.

Results

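Striated muscle, the tissue of skeletal muscle and heart, contracts through sarcomeres, in which filaments of actin slide along filaments of myosin. The set described here holds 37 genes of that machinery and of its control, chosen by gene symbol: 19 mainly of skeletal muscle, 14 mainly of heart and 4 of both. Each was measured by 1 probe set with a single gene symbol, among 19938 genes measured in all. Where a gene had several such probe sets, the one with the highest mean over the 16 arrays was taken, and none of these 37 genes needed that choice.

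On 16 Affymetrix gene arrays the study measured RNA of mouse cells that the labels call midbrain dopaminergic neurons. All cells were of the genotype Pitx3GFP/+ on a mixed C57BL/6 x 129/Ola background, in which 1 allele of Pitx3, a gene for a transcription factor of such neurons, carries green fluorescent protein (GFP). Per the design text, all cells were sorted for GFP, while the sample labels name the sort for primary cells only. The groups were 5 biological replicates differentiated from induced pluripotent stem cells (iPSCs) with recombinant human WNT1 and recombinant human DKK3, 5 biological replicates of iPSC-derived control cells without these proteins, and primary cells of the ventral midbrain at embryonic day E14.5 and at E13.5 with 3 technical arrays each. WNT1 is a signalling ligand of the Wnt family, and DKK3 belongs to the secreted Dickkopf proteins. The sources used here do not say whether these replicates were separate cultures or came from more than 1 iPSC line, and p-values cover the spread among the samples as labelled.

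Pitx3 is also active in developing skeletal muscle and in the lens, so a sort for GFP from its locus can collect muscle cells beside neurons. Muscle differentiation is driven by the MyoD family of transcription factors, which bind E-boxes in DNA, together with MEF2 factors. Differentiating muscle first makes embryonic and perinatal forms of myosin and several proteins of the heart, and replaces them later with adult forms. In bulk RNA such as this, fewer cells of a type and less RNA per cell cannot be told apart. All levels below are log2 values, and differences are differences of log2 means.

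Markers of the labelled cell type were not equally high on all iPSC-derived arrays. Th, the enzyme that makes the dopamine precursor, had levels of 9.22 on WNT1 + DKK3 array 5 and 8.52 on control array 5. On the other 8 iPSC-derived arrays Th lay at or below 6.17, and on the primary arrays it lay between 10.5 and 11.5. Both arrays numbered 5 therefore stood apart from the other iPSC-derived arrays, and the values that change most without them are given both ways. Nanog, a gene of pluripotent cells named here after its values were seen, lay at 6.40 and 6.42 on the arrays numbered 5 of the WNT1 + DKK3 and control groups and between 8.42 and 10.1 on the other 8. Pitx3 lay between 5.67 and 6.17 on WNT1 + DKK3 arrays, between 5.60 and 6.16 on control arrays, between 7.38 and 7.67 on E14.5 arrays and between 7.16 and 7.74 on E13.5 arrays. All 10 iPSC-derived arrays thus had less Pitx3 RNA than all 6 primary arrays. On the arrays numbered 5 Pitx3 was 6.06 in the WNT1 + DKK3 group and 6.16 in the control group, within the range of the other iPSC-derived arrays.

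No muscle gene passed the test between cells with and without WNT1 and DKK3, and the highest levels of most of the set were found on a single treated array. WNT1 + DKK3 array 5 carried the highest level of the 10 iPSC-derived arrays for 24 of the 37 genes, or 64.9%, against 18.9% of all 19938 genes. Among the mainly skeletal genes this held for 15 of 19, and among the mainly cardiac genes for 6 of 14. Array 5 of the control group was highest for 2 of 37 genes, against 10.9% of all genes. The mean level over the 19 skeletal genes was 6.79 on WNT1 + DKK3 array 5 and between 5.79 and 5.91 on the other 4 treated arrays. On control arrays that mean lay between 5.64 and 6.17, with the highest value on array 5. It lay between 5.56 and 5.59 at E14.5 and between 5.56 and 5.72 at E13.5.

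**Figure D1:**
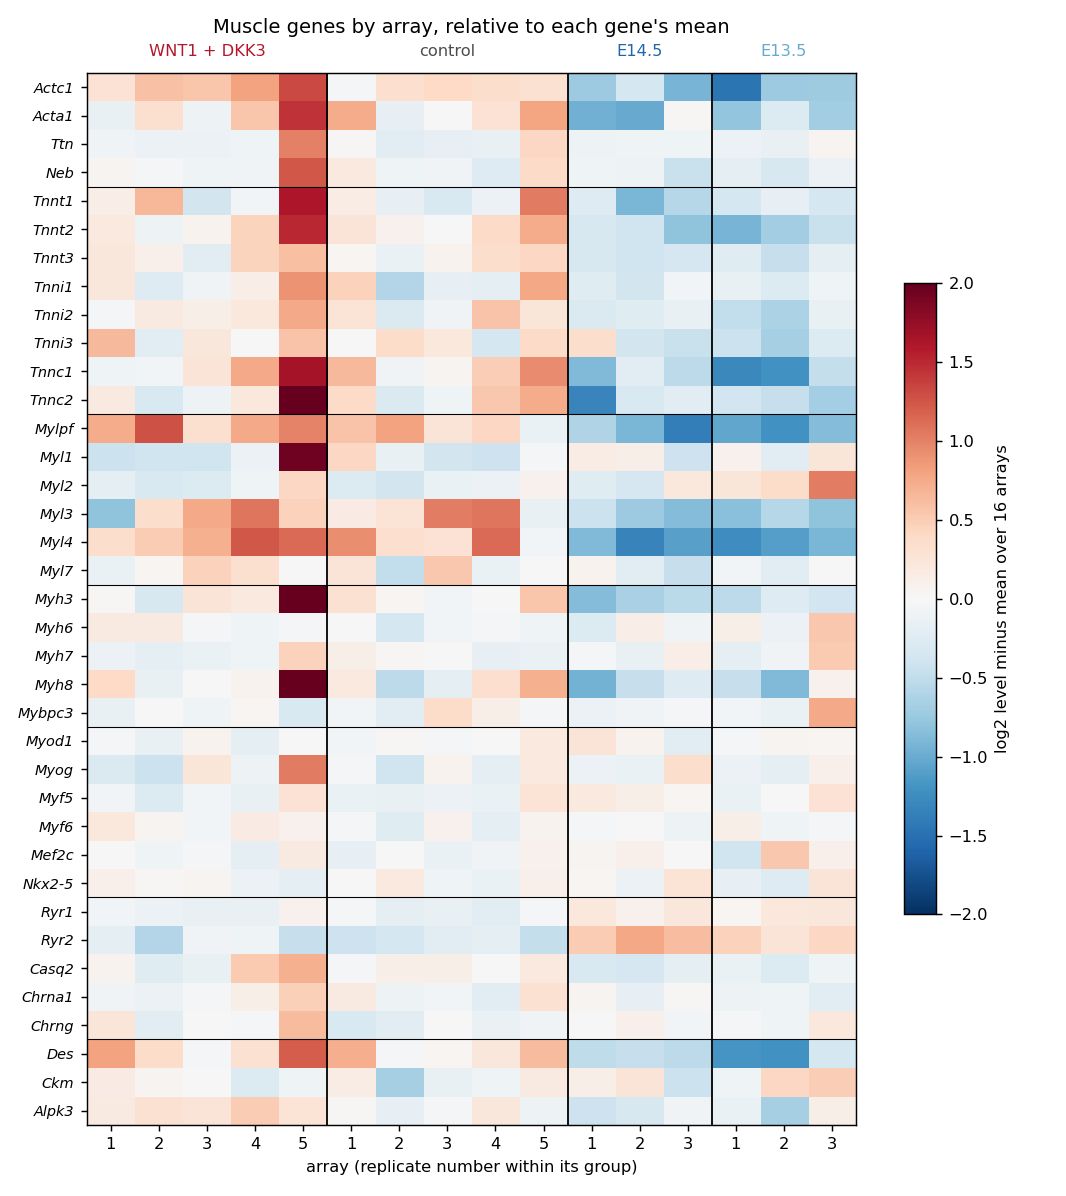
Log2 level of each of the 37 muscle genes (rows, grouped by role) on each of the 16 arrays (columns, by group and replicate number), as the difference from the gene's mean over all arrays. The column of WNT1 + DKK3 array 5 is the reddest, with the darkest cells in Myh3, Myh8, Tnnc2 and Myl1, and in the row of Ryr2 all primary arrays lie above all iPSC-derived ones.

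Of 19938 genes, 13 (0.0652%) had a level on WNT1 + DKK3 array 5 at least 1 above each of the other 9 iPSC-derived arrays, and 4 of these 13 belong to the muscle set: Myh3, Myl1, Myh8 and Tnnc2. Their gaps to the next highest array were 1.69 for Myh3, 1.53 for Myl1, 1.37 for Myh8 and 1.35 for Tnnc2. Myh8, Myh3 and Tnnc2 also had the widest ranges of the set over the iPSC-derived arrays, at 2.59, 2.58 and 2.39 in that order. Their promoters are shown because their ranges were the widest, and Myl1 came next at 2.37. The sequences are from RefSeq, build GRCm38.p6, on the gene's strand from 250 bases before to 50 bases after the start of transcription. Capitals mark matches, on either strand, to the E-box CANNTG, the TATA box TATAAA, the CArG box bound by SRF and the MEF2 site.
Myh8 (chr11:67276874-67277173, plus strand): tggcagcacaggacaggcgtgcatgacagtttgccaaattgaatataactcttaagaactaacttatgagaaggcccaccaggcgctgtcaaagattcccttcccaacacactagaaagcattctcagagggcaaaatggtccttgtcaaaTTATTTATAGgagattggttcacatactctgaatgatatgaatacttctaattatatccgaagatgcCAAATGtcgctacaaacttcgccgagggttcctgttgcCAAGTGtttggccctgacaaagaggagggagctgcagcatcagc
Myh3 (chr11:67078050-67078349, plus strand): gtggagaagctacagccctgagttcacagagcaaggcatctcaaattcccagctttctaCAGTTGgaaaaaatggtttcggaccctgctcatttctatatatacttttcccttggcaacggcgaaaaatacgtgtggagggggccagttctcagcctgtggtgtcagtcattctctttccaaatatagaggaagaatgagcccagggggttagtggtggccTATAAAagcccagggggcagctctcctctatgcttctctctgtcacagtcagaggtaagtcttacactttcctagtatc
Tnnc2 (chr2:164779685-164779984, minus strand): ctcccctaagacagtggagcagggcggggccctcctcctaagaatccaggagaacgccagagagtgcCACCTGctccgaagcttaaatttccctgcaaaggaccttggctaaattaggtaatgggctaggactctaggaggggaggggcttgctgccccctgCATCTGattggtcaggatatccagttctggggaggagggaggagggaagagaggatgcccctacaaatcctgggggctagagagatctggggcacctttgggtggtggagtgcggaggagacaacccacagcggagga

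The Myh8 window held a MEF2 match, TTATTTATAG, starting 99 bases before the start, which overlaps a TATA box match on the other strand, and an E-box match, CAAATG, starting 32 bases before it. A further E-box match, CAAGTG, lay after the start. The Myh3 window held an E-box match, CAGTTG, at 191 bases and TATAAA at 29 bases before the start. The Tnnc2 window held E-box matches CACCTG at 183 and CATCTG at 88 bases before the start. Promoters were listed for 32 of the 37 genes, 38 windows in all. Of these windows 34 (89.5%) held at least 1 CANNTG, against 72.3% of all 32851 promoter windows in the table. The E-box CAGCTG was found in 13 (34.2%), against 16.3% of all windows, and TATAAA in 12 (31.6%), against 13.6%. A MEF2 site was found in 5 (13.2%), against 3.19%, and a CArG box in 4 (10.5%), against 1.63%. These matches are a description of the letters in the windows.

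Myh8 encodes the perinatal myosin heavy chain, a motor protein of fetal skeletal muscle. Its level was 6.28, 5.73, 5.88, 5.94 and 7.95 on WNT1 + DKK3 arrays 1 to 5, against 6.07, 5.36, 5.67, 6.22 and 6.58 on control arrays 1 to 5. At E14.5 it was 4.93, 5.41 and 5.61, and at E13.5 5.41, 4.99 and 5.96. Array 5 was the highest of its group in both iPSC-derived groups, and the treated and control arrays overlapped. The difference, WNT1 + DKK3 minus control, was 0.37 (95% interval -0.50 to 1.25), and 0.13 (-0.31 to 0.56) without both arrays numbered 5.

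Myh3 encodes the embryonic myosin heavy chain. Its level was 5.81, 5.47, 6.05, 5.99 and 8.05 on WNT1 + DKK3 arrays, against 6.11, 5.84, 5.74, 5.80 and 6.36 on control arrays. At E14.5 it was 4.93, 5.14 and 5.25, and at E13.5 5.27, 5.54 and 5.41. Without array 5 the treated arrays lay within or below the range of the controls. The difference was 0.30 (95% interval -0.59 to 1.199) with all arrays and -0.04 (-0.36 to 0.28) without both arrays numbered 5. Probe sets of the myosin heavy chains, whose genes are close relatives, may share signal, and both are therefore uncertain as single genes.

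Tnnc2, the calcium-binding troponin C of fast skeletal muscle, had levels of 6.98, 6.50, 6.69, 6.999 and 8.88 on WNT1 + DKK3 arrays, against 7.18, 6.50, 6.71, 7.33 and 7.53 on control arrays. Its levels were 5.47, 6.49 and 6.57 at E14.5 and 6.42, 6.34 and 6.11 at E13.5. Treated arrays 1 to 4 overlapped the controls, and array 5 lay above all of them. The difference was 0.16 (95% interval -0.74 to 1.05) and turned to -0.14 (-0.58 to 0.30) without both arrays numbered 5. Myl1, a light chain of fast skeletal myosin, had levels of 3.94, 3.97, 3.97, 4.24 and 6.31 on WNT1 + DKK3 arrays, against 4.78, 4.22, 4.00, 3.95 and 4.33 on control arrays. On primary arrays Myl1 was 4.51, 4.48 and 3.96 at E14.5 and 4.45, 4.14 and 4.60 at E13.5. Array 5 of the treated group was thus the only one of the 16 arrays on which Myl1 lay above 4.78. Its difference was 0.23 (95% interval -0.69 to 1.15) with all arrays and -0.21 (-0.60 to 0.19) without both arrays numbered 5. On WNT1 + DKK3 arrays 1 to 4 and control arrays 2 to 5 Myl1 lay below the lower quartile of its array. The difference without both arrays numbered 5 thus rests mostly on low levels.

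Tnnt1, the slow skeletal form of the troponin subunit that binds tropomyosin, had levels of 6.57, 7.10, 6.08, 6.39 and 8.06 on WNT1 + DKK3 arrays, against 6.58, 6.27, 6.13, 6.33 and 7.49 on control arrays. It lay at 6.19, 5.53 and 5.87 at E14.5 and at 6.09, 6.27 and 6.09 at E13.5. Here both arrays numbered 5 were the highest of their groups. The difference was 0.28 (95% interval -0.53 to 1.09), and 0.21 (-0.24 to 0.65) without both. Myl3, a light chain of slow skeletal and ventricular myosin, had another pattern, at 6.10, 7.25, 7.66, 7.97 and 7.37 on WNT1 + DKK3 arrays, against 7.07, 7.18, 7.93, 7.98 and 6.76 on control arrays. Its highest levels were on arrays 3 and 4 of both groups, its level on control array 5 was the lowest of the controls, and primary arrays lay between 6.03 and 6.48. The difference was -0.11 (95% interval -0.88 to 0.65), and -0.29 (-1.15 to 0.56) without both arrays numbered 5.

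**Figure D2:**
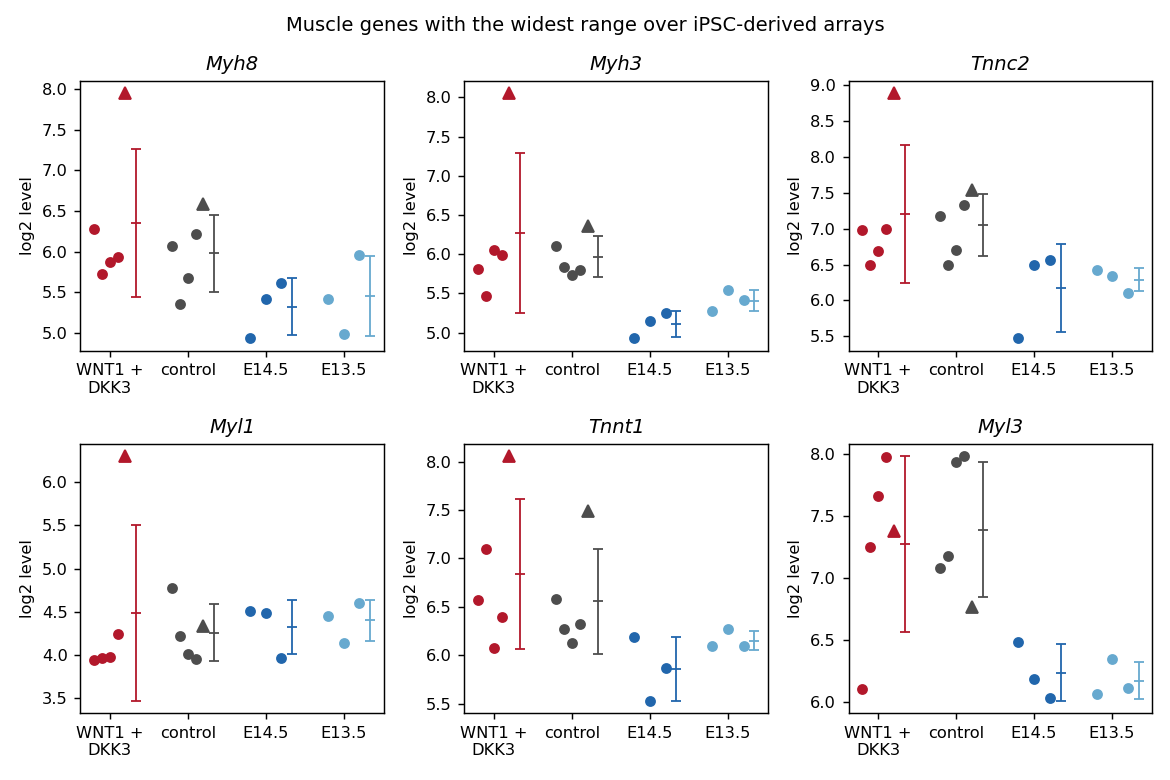
Log2 level on every array of the 6 muscle genes with the widest range over iPSC-derived arrays, by group, with the mean ± SD at the right of each group (n = 5 biological replicates for WNT1 + DKK3 and control, 3 technical arrays for E14.5 and E13.5). Triangles mark the arrays numbered 5: the treated one stands above all other arrays for Myh8, Myh3, Tnnc2, Myl1 and Tnnt1 and within the group for Myl3.

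Titin, nebulin and myogenin were highest on the same array. Ttn encodes titin, the spring of the sarcomere, and was 6.02 on WNT1 + DKK3 array 5 and between 4.89 and 4.94 on the other treated arrays, against 4.81 to 5.43 on control arrays. Neb, which encodes the thin filament protein nebulin, was 6.53 on that array and between 5.20 and 5.34 on the other treated arrays, against 5.03 to 5.66 on control arrays. Myog encodes myogenin, the factor of the MyoD family that drives terminal differentiation. It was 5.00, 4.86, 5.53, 5.18 and 6.32 on WNT1 + DKK3 arrays, against 4.89 to 5.48 on control arrays, so that array 5 was again highest. Myod1, Myf5 and Myf6, the other members of that family, stayed within 5.59 to 5.86, 3.86 to 4.43 and 4.44 to 4.70 on treated arrays, against 5.75 to 5.99, 3.99 to 4.41 and 4.26 to 4.59 on control arrays. Myf5 and Myf6 lay below the array median on all 16 arrays. By role, WNT1 + DKK3 array 5 was highest of the iPSC-derived arrays for 7 of 8 troponin genes, 4 of 4 genes of thin filament actins and giant sarcomere proteins and 4 of 5 genes of calcium release and the endplate receptor. It was highest for 3 of 6 transcription factors, 3 of 5 genes of myosin heavy chains and their binding protein, and 2 of 6 myosin light chains.

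The same array was highest for 31 of 61 other genes of the sarcomere, its junctions and contraction (50.8%). Of 27 regulators of muscle progenitors and heart it was highest for 4 (14.8%, against 18.9% of all genes) and lowest for 6 (22.2%, against 12.2%). Atp2a1 and Musk, of the 61 contraction genes, are examples named after their values were seen. Atp2a1, the calcium pump of fast skeletal muscle, was 7.31 on that array and at most 6.39 on the other 9. Musk, the kinase that organises the nerve-muscle synapse, was 6.36 there and at most 5.74 on the other 9. WNT1 + DKK3 array 5 was highest for 9 of 12 neuronal and 7 of 10 dopaminergic markers too, and for 3 of 14 mesenchyme and 1 of 12 smooth muscle markers. Both arrays numbered 5 were the 2 highest of the iPSC-derived arrays for 14 of the 37 muscle genes (37.8%), against 11.5% of all genes, and for 11 of 12 neuronal, 7 of 10 dopaminergic and 9 of 14 mesenchyme markers. The mean level over the dopaminergic markers was 7.92 on WNT1 + DKK3 array 5 and 7.55 on control array 5. Neuronal and dopaminergic levels were thus high on both arrays. The mean over skeletal genes was 6.79 on the treated and 6.17 on the control array, in each case the highest of its group. The part of other cell types in these levels was not tested.

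**Figure D3:**
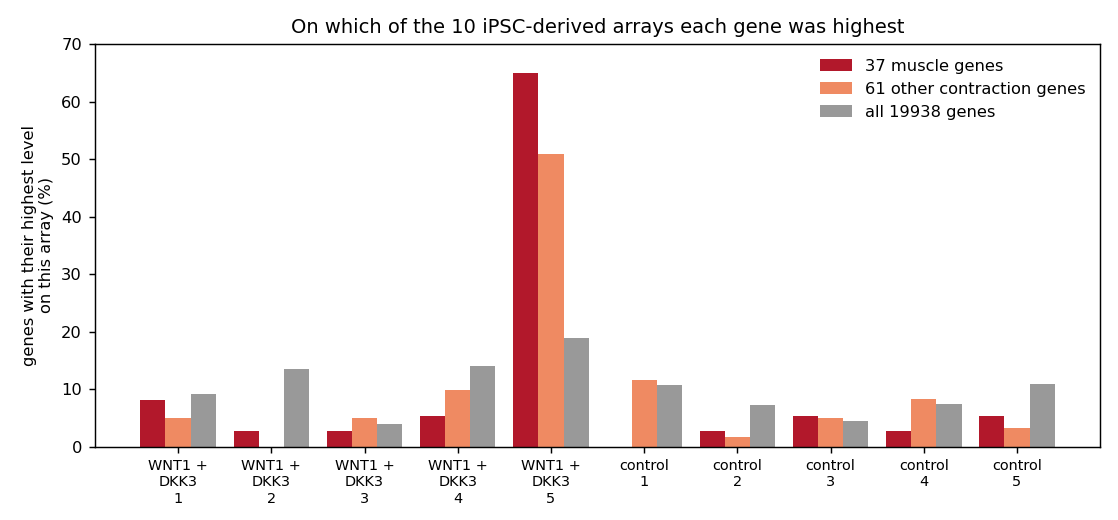
Share of genes (%) whose highest level over the 10 iPSC-derived arrays fell on each array, for the 37 muscle genes, 61 other contraction genes and all 19938 genes. WNT1 + DKK3 array 5 takes 64.9% of the muscle genes and 50.8% of the other contraction genes, against 18.9% of all genes.

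The design compares cells differentiated with WNT1 and DKK3 with control cells first. None of the 37 muscle genes passed limma's test with Benjamini-Hochberg adjustment at 0.05, and none of all 19938 genes did (0%). The smallest adjusted p over all genes was 0.753. Equal replicate numbers were not taken as pairs in this fit. At an unadjusted p under 0.05, limma gave 2 of 37 muscle genes and 300 of all genes (1.5%). The differences were positive for 33 of 37 muscle genes (89.2%), with a median of 0.12, while 56.6% of all genes were positive, with a median of 0.02. Without both arrays numbered 5, 23 of 37 were positive (62.2%), with a median of 0.02, while 53.1% of all genes were positive, with a median of 0.01.

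Both muscle genes with the smallest unadjusted p differed by less than 0.5, and 1 of them, Alpk3, lay below the array median on all 16 arrays. Alpk3, a kinase-like protein needed in heart muscle, was 4.77, 4.90, 4.86, 5.11 and 4.87 on WNT1 + DKK3 arrays, against 4.62, 4.43, 4.56, 4.83 and 4.49 on control arrays, and the groups overlapped only through control array 4. Its difference was 0.32 ± 0.10 (SE, 95% interval 0.10 to 0.53), with an adjusted p of 1 by limma. Actc1, the actin of heart and of developing skeletal muscle, was 7.36, 7.65, 7.63, 7.87 and 8.38 on WNT1 + DKK3 arrays, against 7.04, 7.41, 7.48, 7.42 and 7.37 on control arrays. Of the treated arrays, 1 lay within the control range and 4 above it. The difference was 0.44 ± 0.17 (SE, 95% interval 0.06 to 0.82), with an adjusted p of 1 by limma, and 0.29 (-0.01 to 0.60) without both arrays numbered 5. Mylpf, the regulatory light chain of fast skeletal myosin, differed by 0.44 ± 0.20 (SE), with an adjusted p of 1 by limma, and by 0.27 (95% interval -0.17 to 0.70) without both arrays numbered 5. No muscle gene had all 5 treated arrays above all 5 control arrays, as 0.181% of all genes did. The widest 95% intervals, those of Myh8, Myh3, Myl1, Tnnc2 and Tnnt1, reached above 1, so that a difference of 1 lay within them.

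**Figure D4:**
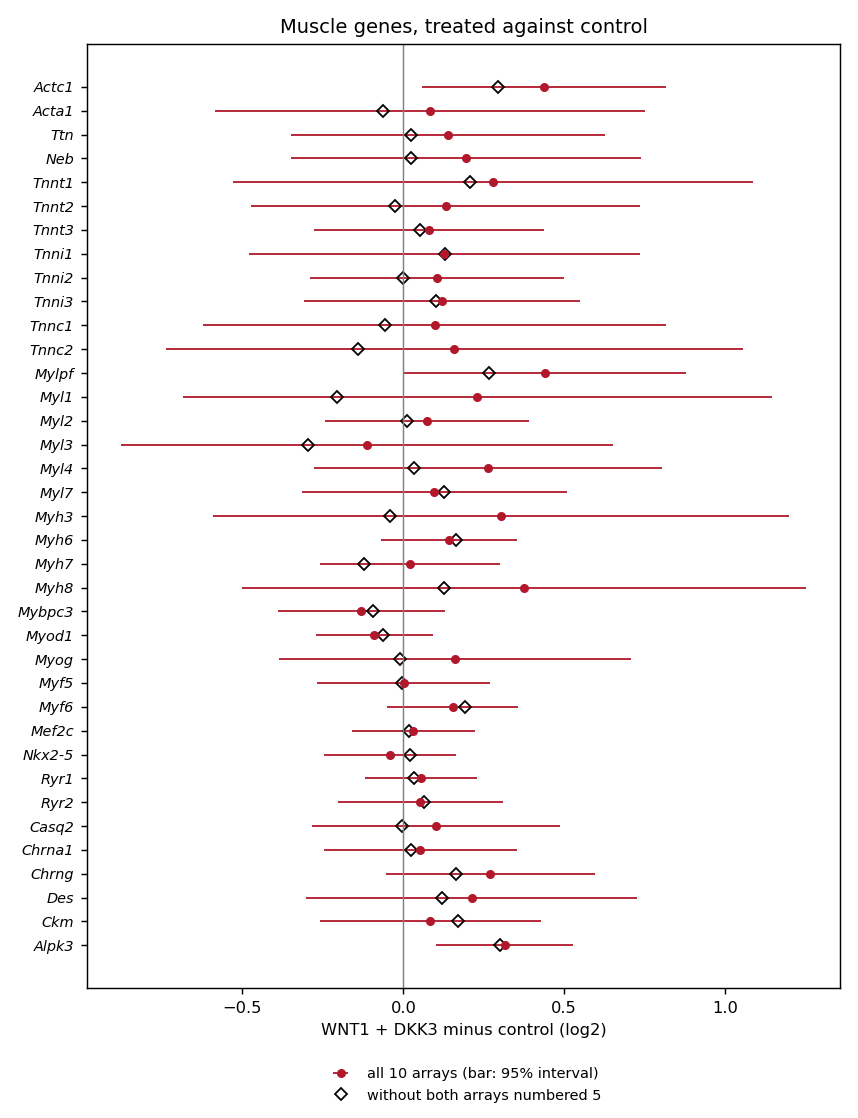
Difference of log2 means, WNT1 + DKK3 minus control, for the 37 muscle genes: points with bars give limma's estimate and its 95% interval over 10 arrays, and open diamonds the estimate without both arrays numbered 5. Most points lie right of 0, and the diamonds of Myh3, Tnnc2 and Myl1 lie left of it.

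The iPSC-derived groups were also set against primary cells, counted as 2 samples, since the 3 arrays of each stage are technical. These comparisons share the primary samples, and each is given by its own values. In both iPSC-derived groups, 5 genes of the sarcomere and its support (Actc1, Mylpf, Myl4, Tnnc1 and Des) were higher than in primary cells, by 1.02 to 1.89, and the calcium release channel Ryr2 was lower. How many of all genes were called in both comparisons was not counted. In WNT1 + DKK3 cells against primary cells, 9 muscle genes were higher and 1 was lower, and 27 did not pass. Of all genes, 19.9% were higher and 21.3% lower, 41.1% in either direction, so that the shares of the muscle set, 9 of 37 and 1 of 37, lay near the first and below the second. In control cells against primary cells, 6 muscle genes were higher and 2 lower, while 19.3% of all genes were higher and 22.5% lower, 41.9% in either direction. Here the shares of the muscle set, 6 of 37 and 2 of 37, also lay near the first and below the second. Without both arrays numbered 5, 9 muscle genes were higher and 2 lower in WNT1 + DKK3 cells (22.9% and 22.8% of all genes), and 10 were higher and 2 lower in control cells (22.5% and 23.6% of all genes). The median difference over the muscle set was 0.38 in WNT1 + DKK3 cells and 0.24 in control cells, with medians of all genes of -0.09 and -0.11 in the same order. Centring each array on its median moved the medians of all genes to -0.30 in both comparisons. Since centring shifts all genes of an array by 1 constant, it leaves the muscle medians relative to all genes at 0.47 for WNT1 + DKK3 and 0.34 for control cells. With that centring, 3059 genes were higher and 8787 lower in WNT1 + DKK3 cells than in primary cells, in place of 3960 and 4241, and 3046 were higher and 8833 lower in control cells, in place of 3855 and 4491.

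The 5 muscle genes called higher in both comparisons were Actc1, Mylpf, Myl4, Tnnc1 and Des, and for each of them all 10 iPSC-derived arrays lay above all 6 primary arrays. Such a separation was also found for Tnnt2, making 6 of 37 muscle genes, a share near the 14.1% of all genes that showed it. Myl4, the light chain of atrial and embryonic muscle myosin, was 7.36, 7.50, 7.71, 8.24 and 8.14 on WNT1 + DKK3 arrays and 7.93, 7.34, 7.29, 8.13 and 6.95 on control arrays. On primary arrays it was 6.12, 5.66 and 5.91 at E14.5 and 5.76, 5.90 and 6.09 at E13.5. Its lowest iPSC-derived level, on control array 5, still lay above its highest primary level. The difference was 1.89 ± 0.31 (SE, adjusted p = 0.00039) in WNT1 + DKK3 cells and 1.62 ± 0.31 (SE, adjusted p = 0.0012) in control cells. These were the widest differences of the muscle set in their comparisons.

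Mylpf was 7.51, 8.06, 7.10, 7.54 and 7.77 on WNT1 + DKK3 arrays and 7.34, 7.58, 7.03, 7.19 and 6.64 on control arrays. Its primary levels were 6.18, 5.86 and 5.39 at E14.5 and 5.74, 5.56 and 5.91 at E13.5. Unlike most skeletal genes, Mylpf was highest on array 2 of both iPSC-derived groups. The difference was 1.82 ± 0.25 (SE, adjusted p = 1e-04) in WNT1 + DKK3 cells and 1.38 ± 0.25 (SE, adjusted p = 0.00085) in control cells. Actc1, whose iPSC-derived levels are given above, was 6.35, 6.72 and 6.14 at E14.5 and 5.60, 6.34 and 6.37 at E13.5. It was higher by 1.53 ± 0.22 (SE, adjusted p = 0.00016) in WNT1 + DKK3 cells and by 1.09 ± 0.22 (SE, adjusted p = 0.002) in control cells. Acta1, the main actin of adult skeletal muscle, was 7.74, 8.22, 7.78, 8.45 and 9.34 on WNT1 + DKK3 arrays and 8.64, 7.72, 7.89, 8.19 and 8.68 on control arrays, and between 6.89 and 7.91 on primary arrays. The groups overlapped, and with all arrays Acta1 was called in WNT1 + DKK3 cells, at 1.03 ± 0.38 (SE, adjusted p = 0.0478), and not in control cells, at 0.95 ± 0.38 (SE, adjusted p = 0.0637). That call was lost without any single one of WNT1 + DKK3 arrays 2 and 4, control arrays 1, 3 and 4 and E13.5 array 3 (adjusted p between 0.0518 and 0.0762). It was also lost with quantile normalization, with centring and with either stage alone (adjusted p between 0.0763 and 0.184). In control cells Acta1 was called without both arrays numbered 5 (0.84, adjusted p = 0.0209), without WNT1 + DKK3 array 5 alone (adjusted p = 0.015), without control array 2 (adjusted p = 0.0486), with array weights (adjusted p = 0.0227) and with duplicateCorrelation on single arrays (adjusted p = 0.00619). The actin genes are close relatives. Acta2, the actin of smooth muscle, was higher by 3.66 in WNT1 + DKK3 and by 3.61 in control cells, and its part in the signal of the Actc1 and Acta1 probe sets was not tested.

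Des encodes desmin, the intermediate filament that ties sarcomeres together. It was 6.89, 6.45, 6.06, 6.39 and 7.30 on WNT1 + DKK3 arrays and 6.82, 6.07, 6.12, 6.31 and 6.72 on control arrays, against 5.58, 5.63 and 5.57 at E14.5 and 4.90, 4.87 and 5.74 at E13.5. It was higher by 1.24 ± 0.30 (SE, adjusted p = 0.0062) in WNT1 + DKK3 cells and by 1.02 ± 0.30 (SE, adjusted p = 0.0173) in control cells. With E14.5 alone as the primary sample, neither call held, at adjusted p of 0.0863 and 0.166 in the same order. Tnnc1, the troponin C of heart and slow muscle, was 6.62, 6.64, 6.95, 7.46 and 8.36 on WNT1 + DKK3 arrays and 7.34, 6.63, 6.75, 7.18 and 7.64 on control arrays, against 5.41 to 6.48 on primary arrays. It was higher by 1.28 ± 0.42 (SE, adjusted p = 0.0286) in WNT1 + DKK3 cells and by 1.18 ± 0.42 (SE, adjusted p = 0.0397) in control cells. The first call was lost without WNT1 + DKK3 array 4 (adjusted p = 0.051), and the second without control array 1, 4 or 5 (adjusted p between 0.0632 and 0.068). Both calls were lost with quantile normalization (adjusted p = 0.0675 in WNT1 + DKK3 and 0.0905 in control cells), with E13.5 alone (0.0724 and 0.089 in the same order) and with E14.5 alone (0.201 and 0.241), and the call in control cells with centring (adjusted p = 0.0557). Without both arrays numbered 5 the differences were 0.99 (adjusted p = 0.011) in WNT1 + DKK3 cells and 1.05 (adjusted p = 0.0081) in control cells.

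The remaining muscle genes called higher each passed in 1 comparison with all arrays, and a pass in 1 comparison does not show that the comparisons differ. Tnnt2, the cardiac and embryonic tropomyosin-binding troponin, averaged 6.98 ± 0.64 in WNT1 + DKK3 cells and 6.85 ± 0.29 in control cells (SD, n = 5 each), against 6.06 at E14.5 and 5.87 at E13.5. It was called at 1.02 ± 0.35 (SE, adjusted p = 0.0331) in WNT1 + DKK3 cells, and reached 0.89 ± 0.35 (SE, adjusted p = 0.0564) in control cells. Its call was lost without WNT1 + DKK3 array 4 (adjusted p = 0.0517), with quantile normalization (0.0869), with centring (0.057), with E13.5 alone (0.107) and with E14.5 alone (0.178). Without both arrays numbered 5 it was called in both, at 0.75 (adjusted p = 0.00306) in WNT1 + DKK3 cells and 0.78 (adjusted p = 0.00244) in control cells, and in control cells also under 5 other alternatives (adjusted p between 0.00304 and 0.049). Alpk3 was called at 0.55 ± 0.12 (SE, adjusted p = 0.0033) in WNT1 + DKK3 cells and reached 0.24 ± 0.12 (SE, adjusted p = 0.136) in control cells, where it was called with quantile normalization (0.41, adjusted p = 0.0147). Alpk3 was 1 of 8 muscle genes below the array median on all 16 arrays, with Myl2, Myh6, Myf5, Myf6, Chrna1, Casq2 and Ryr1. No detection calls were used, so whether these 8 genes stood above background was not tested. Tnnt3, the fast skeletal form of the same troponin subunit, was called at 0.55 ± 0.21 (SE, adjusted p = 0.0486) in WNT1 + DKK3 cells, a call lost without any one of WNT1 + DKK3 arrays 1, 2, 4 and 5 and control arrays 1, 3 and 4 (adjusted p between 0.0532 and 0.0859). The Tnnt3 call was also lost without both arrays numbered 5 (adjusted p = 0.0606), with quantile normalization (0.237), centring (0.159), trend and robust settings (0.0523), array weights (0.0832), E13.5 alone (0.197) and E14.5 alone (0.157). In control cells Tnnt3 was called without WNT1 + DKK3 array 3 (adjusted p = 0.0494) and with duplicateCorrelation (adjusted p = 0.00709). Myl3 was called at 1.18 ± 0.44 (SE, adjusted p = 0.0466) in control cells and reached 1.07 ± 0.44 (SE, adjusted p = 0.0683) in WNT1 + DKK3 cells. The Myl3 call was lost without any one of control arrays 1 to 4 and WNT1 + DKK3 arrays 2, 3 and 5 (adjusted p between 0.0511 and 0.0857), and with quantile normalization (0.0889), centring (0.0657), E13.5 alone (0.158) and E14.5 alone (0.185). In WNT1 + DKK3 cells Myl3 was called without WNT1 + DKK3 array 1 (adjusted p = 0.00727), with array weights (0.0202) and with duplicateCorrelation (0.00305).

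Ryr2 and Ryr1, the calcium release channels of heart and of skeletal muscle, ran the other way. Ryr2, which neurons also use, was 5.47, 5.08, 5.58, 5.58 and 5.20 on WNT1 + DKK3 arrays and 5.25, 5.30, 5.44, 5.48 and 5.19 on control arrays, against 6.17, 6.43 and 6.28 at E14.5 and 6.12, 5.92 and 6.07 at E13.5. It was the only muscle gene with all 10 iPSC-derived arrays below all 6 primary arrays, as 12.7% of all genes were. The difference was -0.78 ± 0.15 (SE, adjusted p = 0.0014) in WNT1 + DKK3 cells and -0.83 ± 0.15 (SE, adjusted p = 0.00089) in control cells. Ryr1 was lower by a difference of -0.29 ± 0.10 (SE, adjusted p = 0.0323) in control cells, and its difference was -0.24 ± 0.10 (SE, adjusted p = 0.072) in WNT1 + DKK3 cells. The Ryr1 call was lost without control array 2, 3 or 4 (adjusted p between 0.0559 and 0.0615), with E13.5 alone (0.142) and with E14.5 alone (0.129). Ryr1 was called in each comparison without both arrays numbered 5, at -0.28 (adjusted p = 0.0361) in WNT1 + DKK3 cells and -0.32 (adjusted p = 0.022) in control cells. In WNT1 + DKK3 cells it was also called under 5 other alternatives (adjusted p between 0.0021 and 0.0337). Ryr1 lay below the array median on all 16 arrays. Neuronal markers fell in the same comparisons, 12 of 12 in each, against 21.3% of all genes in WNT1 + DKK3 and 22.5% in control cells. The part of neurons in the Ryr2 difference was not tested.

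The fetal myosins did not pass with all arrays, and Myh3 passed in both comparisons without both arrays numbered 5. Myh3 differed from primary cells by 1.02 (95% interval -0.10 to 2.14) and Myh8 by 0.97 (-0.13 to 2.06) in WNT1 + DKK3 cells, and by 0.71 (-0.41 to 1.83) and 0.59 (-0.50 to 1.69) in control cells. Myh3 was higher, without both arrays numbered 5, by 0.57 (95% interval 0.19 to 0.96, adjusted p = 0.0201) in WNT1 + DKK3 cells and by 0.61 (0.23 to 0.998, adjusted p = 0.0144) in control cells. Myh8 then differed by 0.57 (0.07 to 1.06, adjusted p = 0.0602) and 0.44 (-0.06 to 0.94, adjusted p = 0.129) in the same order. None of the 6 transcription factors of the set, Myod1, Myog, Myf5, Myf6, Mef2c and Nkx2-5, passed in either comparison as fitted, and their median differences were -0.06 and -0.04 in WNT1 + DKK3 and control cells. The myosin heavy chains of the heart, Myh6 and Myh7, differed by -0.01 (95% interval -0.29 to 0.26) and -0.05 (-0.40 to 0.30) in WNT1 + DKK3 cells. Nor did Mybpc3, Casq2, Chrna1, Chrng, Ckm, Myl1, Myl2, Myl7, Tnnt1, Tnni1, Tnni2, Tnni3, Tnnc2, Ttn and Neb pass in either comparison as fitted. Tnnc2 was higher in control cells without both arrays numbered 5 (0.70, adjusted p = 0.0278) and without WNT1 + DKK3 array 5 alone (0.82, adjusted p = 0.0215), while its difference in WNT1 + DKK3 cells was 0.56 (adjusted p = 0.0666) without both. With duplicateCorrelation on single arrays, Myh3, Myh8, Tnnc2, Tnnt1 and Casq2 were called higher in WNT1 + DKK3 cells (adjusted p between 0.0121 and 0.0244), and Tnnc2 in control cells (adjusted p = 0.0458). With centring, Mef2c was called lower in both comparisons (adjusted p = 0.0327 and 0.0272 in WNT1 + DKK3 and control cells), Myod1 in WNT1 + DKK3 cells (0.0277), and Myh6 (0.0345) and Myl2 (0.0348) in control cells. Tnni2 and Tnni3, the fast skeletal and cardiac inhibitory troponins, were called higher in WNT1 + DKK3 cells under 6 and 3 alternatives in that order. Ckm, which encodes the creatine kinase of muscle, differed by -0.15 (-0.60 to 0.29) in WNT1 + DKK3 cells and -0.24 (-0.68 to 0.20) in control cells.

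**Figure D5:**
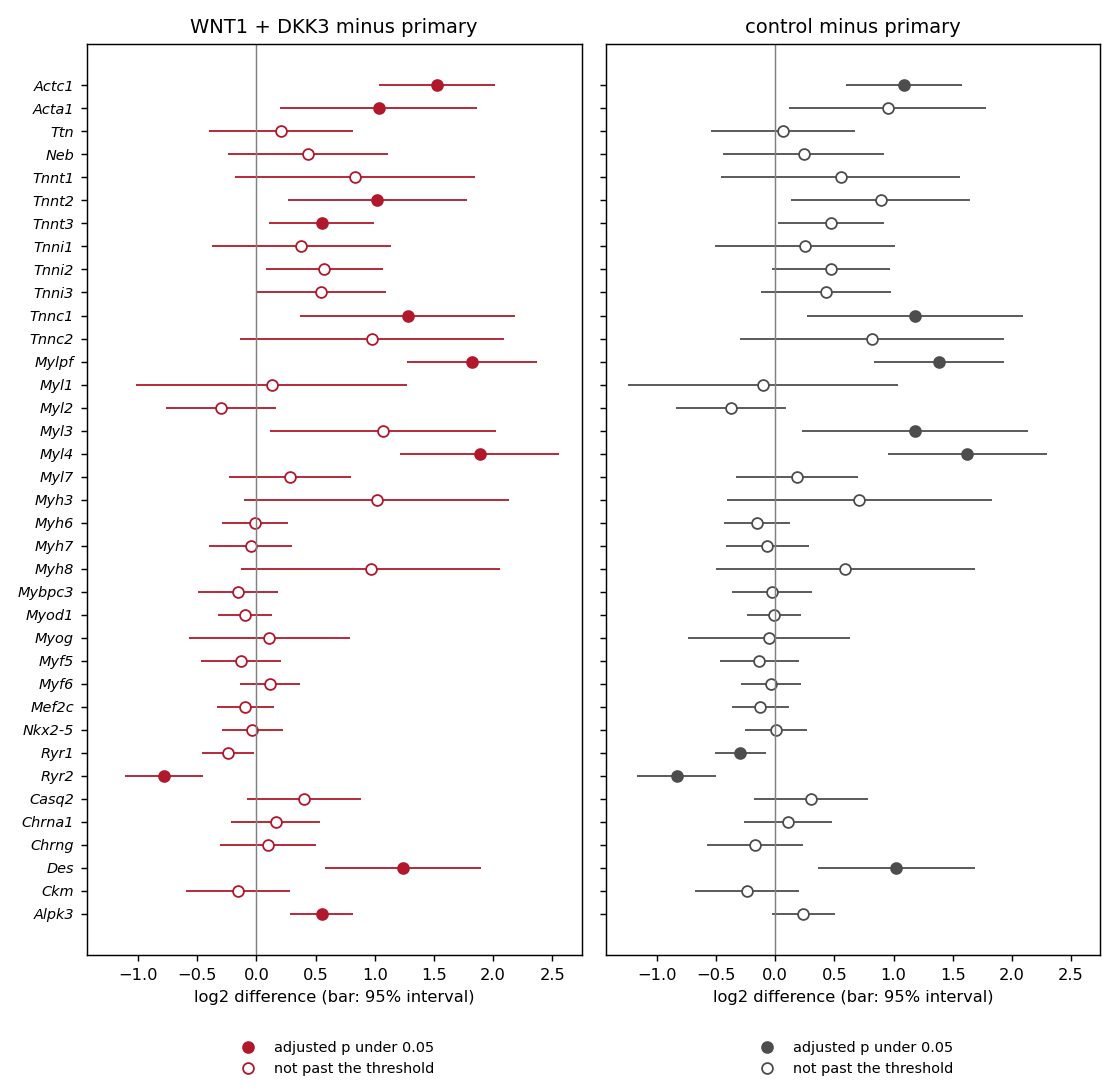
Difference of log2 means from primary cells for the 37 muscle genes, for WNT1 + DKK3 cells at left and control cells at right, with 95% intervals (5 treated, 5 control and 2 primary samples). Filled points passed an adjusted p of 0.05: Myl4, Mylpf, Actc1, Des and Tnnc1 lie right of 0 and Ryr2 left of 0 in both panels.

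Other muscle genes and other cell types were measured beside the set. Of 61 further genes of the sarcomere, its junctions and contraction, 8 rose and 2 fell in WNT1 + DKK3 cells against primary cells (19.9% and 21.3% of all genes), and 5 rose and 3 fell in control cells (19.3% and 22.5% of all genes). The largest rises were those of Tpm2 and Tpm1, tropomyosins that smooth muscle and non-muscle cells also make, at 3.34 and 2.78 in WNT1 + DKK3 cells and 3.38 and 2.74 in control cells. Chrnb1, the beta subunit of the acetylcholine receptor at the nerve-muscle synapse, rose by 2.03 in WNT1 + DKK3 cells and by 2.12 in control cells. Myl6b, a light chain made in slow muscle and in non-muscle cells, differed by -1.68 and Pln, the regulator of the cardiac calcium pump, by -0.50 in WNT1 + DKK3 cells, and by -1.75 and -0.63 in control cells, where the adult fast myosin Myh1 differed by -0.34. Each of these passed the test where a value is given. Of 27 regulators of muscle progenitors and heart, 4 rose and 2 fell in each comparison, beside those same shares of all genes. Eya1, a cofactor of homeodomain proteins in muscle progenitors, rose by 1.94 in WNT1 + DKK3 cells and 1.70 in control cells, and Nppb, a natriuretic peptide of the heart, by 1.45 and 1.52. Six4, a partner of Eya1, rose by 1.01 in WNT1 + DKK3 cells, and Hand1, a factor of early heart and extraembryonic mesoderm, by 1.84 in control cells (adjusted p = 0.05, just past the threshold). Srf, which drives muscle actin genes, differed by -0.57 and Pax7, a factor of muscle stem cells and of the dorsal midbrain, by -0.45 in WNT1 + DKK3 cells, and by -0.59 and -0.38 in control cells, and both fell by the test.

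Smooth muscle and mesenchyme markers were mostly higher in iPSC-derived cells than in primary cells. Of all genes, 19.9% were higher and 21.3% lower in WNT1 + DKK3 cells than in primary cells, and 19.3% and 22.5% in control cells. Of 12 smooth muscle markers, 9 rose and 0 fell in each comparison by limma, Myl9 by 3.82 in WNT1 + DKK3 cells and 3.70 in control cells. The mean level over the 12 lay between 6.93 and 7.26 on WNT1 + DKK3 arrays and between 6.997 and 7.22 on control arrays, against 5.49 to 5.70 at E14.5 and 5.53 to 5.69 at E13.5. Of 14 mesenchyme markers 13 rose in each comparison, led by Dcn, the matrix proteoglycan decorin, at 5.48 in WNT1 + DKK3 cells and 5.68 in control cells. Their mean lay between 8.19 and 9.21 on WNT1 + DKK3 arrays and between 8.35 and 9.31 on control arrays, against 5.79 to 5.84 at E14.5 and 5.63 to 5.87 at E13.5. All 10 dopaminergic markers fell in each comparison, Th with differences of -4.87 in WNT1 + DKK3 cells and -4.90 in control cells and Pitx3 with differences of -1.55 and -1.58. Of 16 lens markers only 1 rose, a share below that of all genes in each comparison. It was Cryab, a small heat shock protein that muscle also makes, by 4.55 in WNT1 + DKK3 cells and 4.67 in control cells. The part of any of these cell types in the differences of the muscle genes was not tested.

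Between the embryonic stages there was 1 sample each, so no test was made, and a gene counted as different where the stage means differed by at least 1 and the arrays did not overlap. None of the 37 muscle genes met this, while 0.176% of all genes were higher and 0.0652% lower at E14.5. The median difference, E14.5 minus E13.5, was -0.02 over the muscle set and -0.01 over all genes. Myl2, the regulatory light chain of ventricular and slow muscle myosin, was 4.54, 4.45 and 4.99 at E14.5, against 5.01, 5.15 and 5.80 at E13.5. Its stage arrays did not overlap, and the difference was -0.66, past a threshold of 0.58 but not of 1. Arrays of the stages were also apart for Myh3, at -0.30, and for Ryr2, at 0.26, making 3 of 37 muscle genes, while 9.68% of all genes had stage arrays apart in either direction. The technical arrays within a stage differed too: the mean over the muscle set was 5.59 on every E14.5 array, against 5.50 to 5.78 at E13.5, with the highest value on E13.5 array 3. Mybpc3, a binding protein of cardiac myosin, showed this array, at 5.41, 5.45 and 5.50 at E14.5, against 5.46, 5.39 and 6.28 at E13.5. Th differed by 0.23 and Pitx3 by 0.07 between the stages.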

How the data were processed

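The authors deposited log2 expression values of 35556 probe sets on 16 arrays. Affymetrix Expression Console 1.2 and RMA (background correction, quantile normalization and probe summaries) stand in the submitters' processing notes. Per the labels' protocols, RNA was prepared with RNeasy kits and amplified from small amounts (Ovation PicoSL WTA System V2), which can add spread between arrays. After quantile normalization, levels are relative. The sources used here do not say whether all arrays were normalized in 1 run. Array medians of the deposited values ran from 5.85 to 6.02. No detection calls were used, and the number of arrays limits the precision.

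Names came from the platform's probe table: 21789 probe sets with 1 symbol, 1621 with several (left out) and 12146 unnamed, and 21698 symbols were updated or kept through Entrez IDs. Limma 3.58.1 (R 4.3.3; tested on simulated data) was run over all 19938 genes with Benjamini-Hochberg adjustment at 0.05: on 10 arrays for WNT1 + DKK3 against control, and on 12 samples in 3 groups against primary cells, where technical arrays of a stage were averaged. The alternatives tried were quantile normalization, median centring, a filter on dim genes, eBayes with trend, array weights, averaged probe sets, a replicate block, duplicateCorrelation, single stages and leaving out arrays. The muscle genes and the marker lists were chosen with earlier results of these data known. Values on every array were given for the 6 muscle genes with the widest range over iPSC-derived arrays and for those a comparison turned on, statistics for called genes, and, of the other lists, the 3 called genes with the largest difference per direction. Alpk3, Actc1, Mylpf, Ttn, Neb, Myog, Myl2 and Mybpc3 were singled out after their values were seen, in the comparisons in which they were not called.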

Additional observations from a re-analysis of the deposited data

Results flagged for a closer look

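Within the groups of 5 iPSC-derived arrays, a gap test (Dixon's ratio at its 95% critical value) marked 10 values of the muscle genes that stood far from the other 4 arrays. In WNT1 + DKK3 cells there were 7, all high and all on array 5: Myl1 at 6.31, Myh3 at 8.05, Myh7 at 6.19, Myh8 at 7.95, Tnnc2 at 8.88, Ttn at 6.02 and Neb at 6.53. In control cells there were 3, on different arrays: Actc1 was low on array 1 at 7.04, Myh6 was low on array 2 at 4.65, and Myf5 was high on array 5 at 4.41. Chance marks about 1 in 20 groups. Over all genes, 7.42% were marked in WNT1 + DKK3 cells and 7.16% in control cells, against 18.9% and 8.11% of the muscle genes in the same order. The 7 marks in WNT1 + DKK3 cells all come from 1 array, so they are not 7 separate results. The muscle genes were also chosen with earlier results of these data known, so these shares describe that array and test nothing further.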

How the results depend on the processing

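Between WNT1 + DKK3 and control cells, no muscle gene was called under any of 19 alternatives, and leaving out 1 array moved the median difference between -0.026 and 0.20. With equal replicate numbers as a replicate block, 0 muscle genes and 1 of all genes were called. The numbers were not taken as pairs, because the correlation of deviations was 0.0448 for number 1, while for numbers 2 to 5 it was 0.52, 0.435, 0.718 and 0.798. Differences that changed sign were those of Tnnc2 (-0.028) and Th (-0.0017) with array weights. Without both arrays numbered 5, with or without the replicate block (the block was added after seeing the data), they were Myh3 (-0.042), Tnnc2 (-0.14), Myl1 (-0.21) and Th (-0.15). Leaving out 1 array, the differences ranged from -0.024 to 0.53 for Myh8, -0.14 to 0.51 for Myh3, -0.26 to 0.34 for Tnnc2, -0.23 to 0.37 for Myl1, -0.026 to 0.51 for Tnnt1, -0.044 to 0.10 for Pitx3 and -0.69 to 0.57 for Th and -0.29 to 0.18 for Myl3. Against primary cells, 21 alternatives were run. The muscle genes called higher in WNT1 + DKK3 cells numbered 5 with quantile normalization or E13.5 alone, 4 with E14.5 alone and 17 with duplicateCorrelation on single arrays, and those called lower 2 with quantile normalization, array weights, duplicateCorrelation or without both arrays numbered 5, and 4 with centring. In control cells, higher calls numbered 10 without both arrays numbered 5, 3 with E14.5 alone and 11 with duplicateCorrelation, and lower calls 5 with centring and 1 with either stage alone. Centring put the muscle median at 0.17 in WNT1 + DKK3 and 0.047 in control cells. Leaving out 1 array gave 5 (without WNT1 + DKK3 array 4) to 10 higher and 1 to 2 lower in WNT1 + DKK3 cells, and 4 to 9 higher and 1 to 2 lower in control cells. Myl4, Mylpf, Actc1 and Ryr2 kept their calls under all 21 alternatives in both comparisons. Between stages, a threshold of 0.58 gave 1 muscle gene lower. The cause of these changes was not tested. Fits with 1 stage or without arrays also had fewer samples. Against primary cells the spread was shared over the 3 groups, so leaving out a WNT1 + DKK3 array also changed adjusted p in control cells. Acta1 differed there by 0.95 both with all arrays (adjusted p = 0.0637 by limma) and without WNT1 + DKK3 array 5 (0.015).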
